A study of Mus musculus with 117 samples.

Results

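Clustered enhancer domains are stretches of the genome in which many acetylated enhancers lie close to each other. In mouse embryonic fibroblasts (MEF), 819 such domains were found. They were chosen by the H3K27ac peak list of wild type MEF. Of its 37379 peaks, 22210 had no overlap with an H3K4me3 MEF peak and were taken as enhancer peaks. Enhancer peaks separated by 12.5 kb or less were joined into 11178 clusters, and clusters with 5 or more peaks were kept as domains. The 819 domains held 5934 enhancer peaks, called constituents below, or 26.7% of all enhancer peaks. The other 16276 are called unclustered enhancers. The MEF H3K27ac and H3K4me3 lists therefore fixed which regions are described, and nothing below is supported by them.

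H3K27ac is an acetyl mark on histone H3 that the coactivators Ep300 and Crebbp write at active enhancers and promoters, while H3K4me3 marks promoters. Clusters of strongly acetylated enhancers, often called super-enhancers when they are also ranked by signal, lie near genes that define a cell's identity, and in fibroblasts they are bound by factors such as AP-1, TEAD and RUNX. SUMO-1 and SUMO-2 are small proteins that the E2 enzyme Ubc9 attaches to chromatin proteins. Oct4, Klf4 and Sox2, expressed together with Myc (OKSM), bring fibroblasts to pluripotency, and fibroblast enhancers lose activity on the way.

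The cells were MEF from mid-gestation embryos at passage 1. The MEF chromatin samples were wild type with no hairpin, and the day 4 (D4) cells were MEF that had expressed OKSM for 4 days with a control hairpin (shCtrl) or a hairpin against Ubc9 (shUbc9). MEF and D4 chromatin thus differed in both the factors and the presence of a hairpin, and the 2 cannot be told apart. RNA came from MEF and D4 cells that all carried shCtrl or shUbc9. Wild type embryonic stem (ES) cells served as a pluripotent reference. Nothing in the labels gives the culture or embryo behind a replicate, so the p-values below reflect library-to-library spread, which may be technical.

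Each peak list was made by the authors from both replicates of 1 antibody and condition, so peak results carry no spread between replicates and no test between conditions. Their 95% intervals (Wilson for shares, exact Poisson for densities) cover counting error only. Constituents of a domain are neighbours and share their surroundings, so these intervals, which treat regions as independent, are too narrow on that account. Coordinates are on mm9.

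The domains were 3985 to 124468 bp long, with a median of 26096 bp, and together covered 23.3 Mb. A domain held 5 to 28 constituents, with a median of 6, and 132 domains held 10 or more. Peaks made up 41.4% of the domains' summed length. Neighbouring constituents were 845 bp apart at the median, and 25% of the gaps were 192 bp or shorter. At the threshold itself, 288 domains had 5 peaks and a median length of 18299.5 bp, and 518 clusters with 4 peaks, a median of 13919 bp long, were left out. The constituents had a median H3K27ac score of 452 against 354 in unclustered enhancers, where the score is the authors' and ranks peaks within 1 list. Constituents were therefore richer in strong peaks, with 35.6% in the highest of 4 equal score bins cut over all enhancer peaks, against 21.1% of unclustered enhancers. Chromosome 2 held 77 domains and chromosome 1 held 76, while chromosome X held 5, with 9.90% of its enhancer peaks in domains against 33.8% on chromosome 2. Of the 819 domains, 192 had another domain within 50000 bp.

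**Figure D1:**
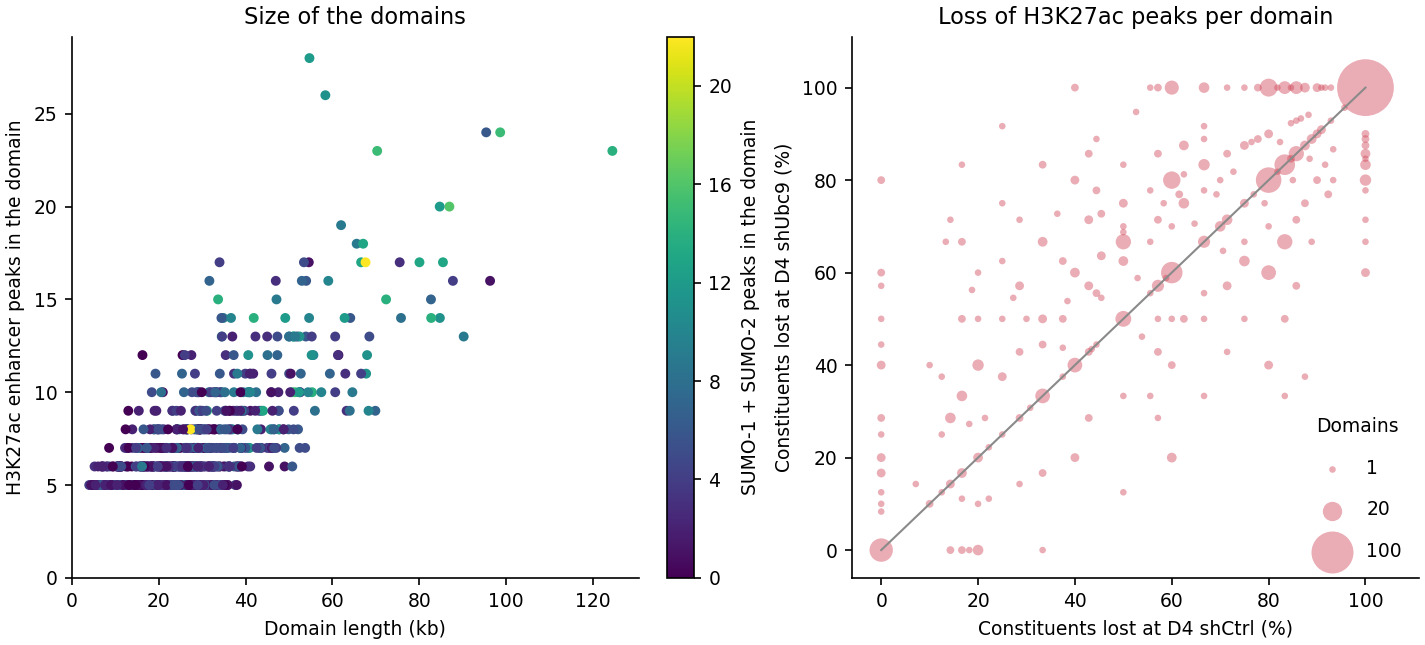
Left, each point is 1 of 819 domains, placed by length (kb) and number of H3K27ac enhancer peaks and coloured by its number of SUMO-1 and SUMO-2 peaks. Right, the share of constituents (%) without an H3K27ac peak at D4 shCtrl and at D4 shUbc9, with circle area growing with the number of domains. More circles lie above the line of equal loss, where 271 domains lost more constituents at shUbc9, than below it, where 130 lost more at shCtrl.

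The domain with most constituents lay at chr2:117451274-117505980 and held 28 peaks in 54707 bp. A second domain on the same chromosome, at chr2:117686453-117744821, held 26. Next came chr3:145458079-145556713 and a domain on chromosome 18 with 24 peaks each. The domains at chr7:116666298-116790765, which at 124468 bp was also the longest, and at chr3:79683237-79753541 had 23. The domains at chr10:120052013-120138944 and chr16:57665916-57750621 had 20. These 8 domains differed widely in what remained at D4. The domain with 28 constituents kept an H3K27ac peak on 2 of them in either D4 condition, and the one at chr3:79683237 kept 1 of 23 in either. The domain at chr7:116666298 kept 13 of 23 in either condition, although 4 constituents were lost only at shUbc9 and 4 only at shCtrl.

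SUMO was present in most domains. A SUMO-1 peak lay in 630 domains (76.9%), a SUMO-2 peak in 650 (79.4%), and neither in 127 (15.5%). The domains held 1494 SUMO-1 peaks, which is 12.04% of the SUMO-1 list, at 64.1 peaks per Mb (60.9 to 67.4). They held 1674 SUMO-2 peaks, 16.8% of that list, at 71.8 peaks per Mb (68.4 to 75.4). The median domain had 1 SUMO-1 and 2 SUMO-2 peaks, and the highest number was 11 for either. Across domains the numbers of SUMO-1 and SUMO-2 peaks went together, with a Spearman correlation of 0.81 over 819 domains, which share their length. The number of constituents was a weaker guide, with correlations of 0.36 for SUMO-1 and 0.38 for SUMO-2.

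Within a domain, SUMO sat on the acetylated peaks and not in the gaps between them. Of the SUMO-1 peaks in domains 92.4% overlapped a constituent, and of the SUMO-2 peaks 92.7%. Counted by summits, SUMO-1 had 136 per Mb of constituent sequence and 12.7 per Mb of gap. SUMO-2 had 153 and 13.8. Unclustered enhancers had 135 SUMO-1 and 162 SUMO-2 summits per Mb of peak sequence, so per base the constituents matched them for SUMO-1 and were lower for SUMO-2. Distances were taken for SUMO summits inside a constituent only, 1309 for SUMO-1 and 1479 for SUMO-2. Their median distance to the nearest constituent summit was 346 bp for SUMO-1 and 337 bp for SUMO-2. Of these SUMO-1 summits, 31.3% lay within 250 bp of the acetylation summit and 73.7% within 500 bp. In unclustered enhancers the SUMO-1 median was 320 bp, with 35.3% within 250 bp and 80.1% within 500 bp.

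SUMO peaks in domains were broader than those elsewhere, with a median of 843 against 551 bp for SUMO-1 and 924 against 698 bp for SUMO-2. A SUMO-2 peak overlapped 82.1% of the SUMO-1 peaks in domains and 50.1% of those elsewhere, and a SUMO-1 peak overlapped 72.3% and 65.6% of the SUMO-2 peaks. On enhancers the overlap was alike, since 1144 of 1363 constituents and 2762 of 3440 unclustered enhancers with SUMO-1 also had SUMO-2. An H3K27ac MEF peak lay under 42.1% of the SUMO-1 peaks outside domains. SUMO peaks of ES cells lay on 51 constituents for SUMO-1 and 52 for SUMO-2, or 0.86% and 0.88% of all, near the 1.01% and 1.02% over all enhancer peaks.

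Counted by peaks, constituents carried SUMO-1 in 22.97% (21.9 to 24.1) and unclustered enhancers in 21.1% (20.5 to 21.8). Over all enhancer peaks the share was 21.6%. For SUMO-2 the shares were 26.2% (25.1 to 27.4) in constituents and 24.8% (24.1 to 25.5) in unclustered enhancers, with 25.2% over all. The excess of 1.83 percentage points for SUMO-1 and 1.45 for SUMO-2 left both shares close to that background. It turned into a deficit of -2.29 and -3.02 points when unclustered enhancers were weighted to the constituents' H3K27ac scores. It also turned, to -1.57 and -2.06, when the SUMO peak had to cover at least 50% of the H3K27ac peak. In score bin 1, the weakest, 7.73% of constituents and 11.1% of unclustered enhancers had SUMO-1. In bin 3 these shares were 17.0% and 21.5%. In bin 4, the strongest, they were 42.0% and 41.3%, and their intervals overlapped.

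**Figure D2:**
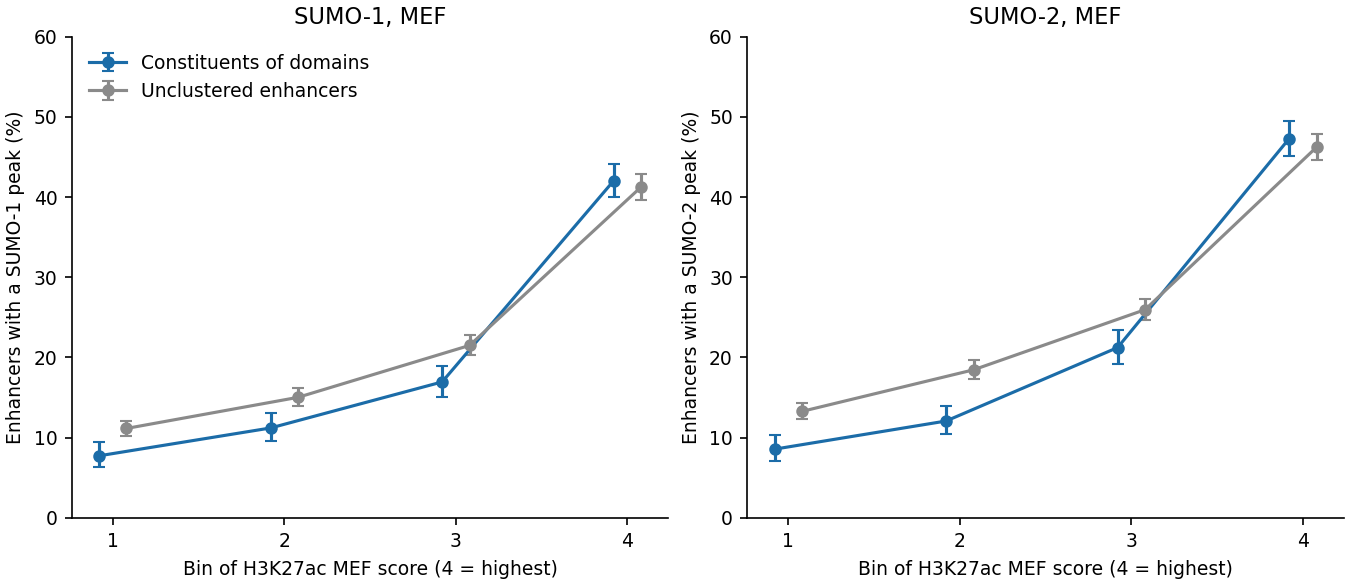
Share of enhancers (%) with a SUMO-1 peak (left) or SUMO-2 peak (right) in MEF, by H3K27ac score bin (4 equal bins over all enhancer peaks), for constituents and unclustered enhancers. Bars are 95% Wilson intervals. Constituents lie below unclustered enhancers in bins 1 to 3 and beside them in bin 4, at 42.0% and 41.3% for SUMO-1.

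SUMO was most frequent on the strongest peak of a domain, although most constituents with SUMO were not that peak. The constituent with the highest score of its domain carried SUMO-1 in 46.8% and SUMO-2 in 51.5% of domains. The shares were 35.8% and 41.0% for the second highest, and 13.9% and 15.5% for constituents below the third. By position, 24.0% of the outermost and 22.6% of the inner constituents had SUMO-1. For SUMO-2 the order was the other way, with 25.6% and 26.5%. Both SUMO proteins lay on 1144 constituents (19.3%), SUMO-1 alone on 219, SUMO-2 alone on 413 and neither on 4158 (70.1%). The median H3K27ac score was 881 with both and 381 with neither. H3K4me1, a mark of enhancers whether active or not, lay on 81.0% of constituents with both and 51.4% of those with neither. H3K9me3, a mark of silent chromatin, lay on 7.08% and 1.80%.

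The densest SUMO was looked for among the domains with 5 or more SUMO peaks. There, the domain at chr14:123927318-123934015, 6698 bp long, had 3 SUMO-1 and 3 SUMO-2 peaks, or 896 per Mb, the highest value. The domain at chr16:45921506-45948824 had 11 of each in 27319 bp and 805 per Mb, and 4 of its 8 constituents kept H3K27ac in either D4 condition. The other 3 of the 5 densest, at chr4:63737200-63745923, chr3:81686557-81693913 and chr10:67813803-67822215, had 594 to 688 per Mb. None of the 5 or 6 constituents of these kept a peak at D4 shUbc9, and at D4 shCtrl 0, 1 and 2 did. Of all 819 domains, 253 (30.9%) kept no constituent at shUbc9. The longest domain without any SUMO peak was chr1:74040421-74101798, with 12 constituents in 61378 bp. The next, at chr7:17155787-17204465, had 8, and a domain on chromosome 18 had 6.

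Most constituents had no H3K27ac peak after 4 days of OKSM expression. At D4 shCtrl 3959 of 5934, or 66.7% (65.5 to 67.9), had none. At D4 shUbc9 there were 4246, or 71.6% (70.4 to 72.7). Over all enhancer peaks the shares were 70.1% and 73.5%. The MEF list is longer than the D4 lists, of 25719 and 25849 peaks, so these shares also depend on the lists' lengths and thresholds. Its lowest score is 200 and that of both D4 lists 360, but scores may not share a scale between lists. With the MEF list cut to the 25719 highest peaks, a choice made after seeing the data, the shares in the remaining 342 domains were 60.4% and 66.2%. In bulk chromatin, fewer cells with the mark and less mark per cell cannot be told apart.

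Unclustered enhancers were lost at 71.3% and 74.3%, a difference of -4.60 percentage points at shCtrl (-5.99 to -3.22) and -2.70 at shUbc9 (-4.04 to -1.38). With unclustered enhancers weighted to the constituents' scores, the difference was -0.07 points at shCtrl and turned to an excess of 1.54 at shUbc9. In score bin 4, 50.8% of constituents and 50.3% of unclustered enhancers kept a peak at shCtrl. In bin 1, 16.5% and 17.1% did. In domains with 10 or more peaks, constituents were lost more often than other enhancers at shUbc9, by 1.89 points. With the upper 50% of every list by score, constituents were lost more often in both conditions, by 5.52 and 8.33 points.

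**Figure D3:**
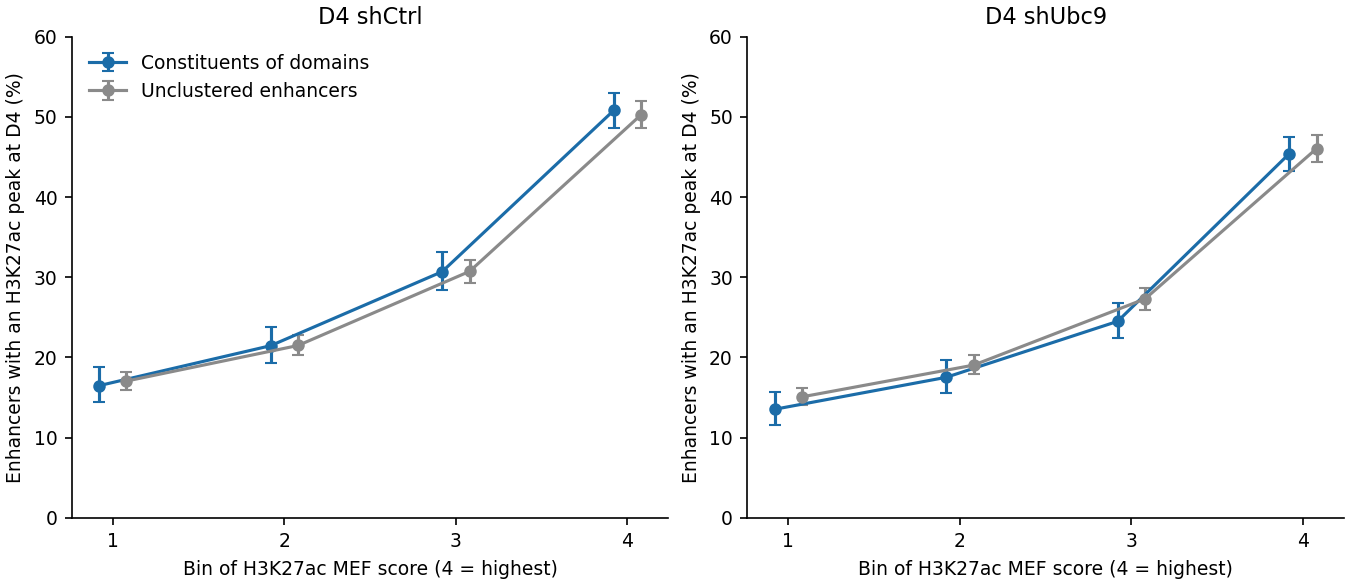
Share of enhancers (%) that kept an H3K27ac peak at D4 shCtrl (left) and D4 shUbc9 (right), by bin of the H3K27ac score in MEF, for constituents and unclustered enhancers. Bars are 95% Wilson intervals. Constituents and unclustered enhancers overlap in every bin at shCtrl, and the share rises from 16.5% of constituents in bin 1 to 50.8% in bin 4.

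The 2 D4 conditions can be compared more directly, since their H3K27ac lists have nearly the same length. Their lowest scores are also the same, which does not show equal thresholds, since scores rank peaks within a list. Loss in constituents was higher at shUbc9 by 4.84 percentage points (3.18 to 6.49). This interval treats the shares as coming from 2 separate sets, although the same constituents gave both. Its width is therefore not that of a paired comparison. Both conditions kept 1429 constituents and neither kept 3700. Another 546 (9.20%) were lost only at shUbc9 and 259 (4.36%) only at shCtrl, a ratio of 2.11. Over all enhancer peaks these shares were 8.14% and 4.70%, a ratio of 1.73, and among unclustered enhancers the ratio was 1.61. The difference kept its direction under every alternative tried, from 3.79 to 5.79 points. With 1 list per condition it cannot be set against the spread between replicates.

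Loss was uneven between domains. No constituent was kept in 212 domains (25.9%) at shCtrl and in 253 (30.9%) at shUbc9, 184 of them the same. Every constituent was kept in 52 domains at shCtrl and in 41 at shUbc9. More constituents were lost at shUbc9 in 271 domains, more at shCtrl in 130, and equally many in 418. The 546 constituents lost only at shUbc9 lay in 324 domains, with up to 8 in a domain. The 259 lost only at shCtrl lay in 191 domains, with up to 4. Neighbours tended to share their state. A constituent following one that kept H3K27ac at shCtrl kept it in 59.9% of cases, and in 20.7% of cases after one that did not. For SUMO-1 the same shares were 30.0% and 21.0%. The same peak can overlap neighbouring constituents, and pairs were pooled over domains that differed in these shares. The part of either in these values was not tested.

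The largest excess at shUbc9 was 8 constituents, in 4 domains. The domain at chr1:45355154-45417144 kept 9 of 19 at shCtrl and 1 at shUbc9. All 8 that differed were consecutive, in a run from 33.0 to 45.4 kb from its start, while its last and broadest constituent was kept in either condition. The domain at chr6:50906420-50989110 kept 13 of 15 at shCtrl and 5 at shUbc9. The domain at chr1:74040421-74101798, also the longest without SUMO, kept 10 of 12 and 2. The domain at chr6:4461475-4486954 kept 9 of 12 and 1, and held no SUMO, Oct4, Klf4 or Sox2 peak. The domain at chr9:102628849-102687892 followed with 13 and 7 of 16.

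The opposite excess was smaller. The domain at chr6:34444307-34480441 kept 1 of 8 constituents at shCtrl and 5 at shUbc9. Those at chr10:67548297-67585555, chr2:52796073-52842048 and chr3:37855894-37879383 kept 3 more at shUbc9 than at shCtrl. The first 2 of these held 7 and 5 H3K27ac peaks of ES cells. The last of the 5 was the domain with 20 constituents at chr10:120052013, which kept 2 and 4. Other domains had the same excess of 2, and this one was taken for its number of constituents.

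**Figure D4:**
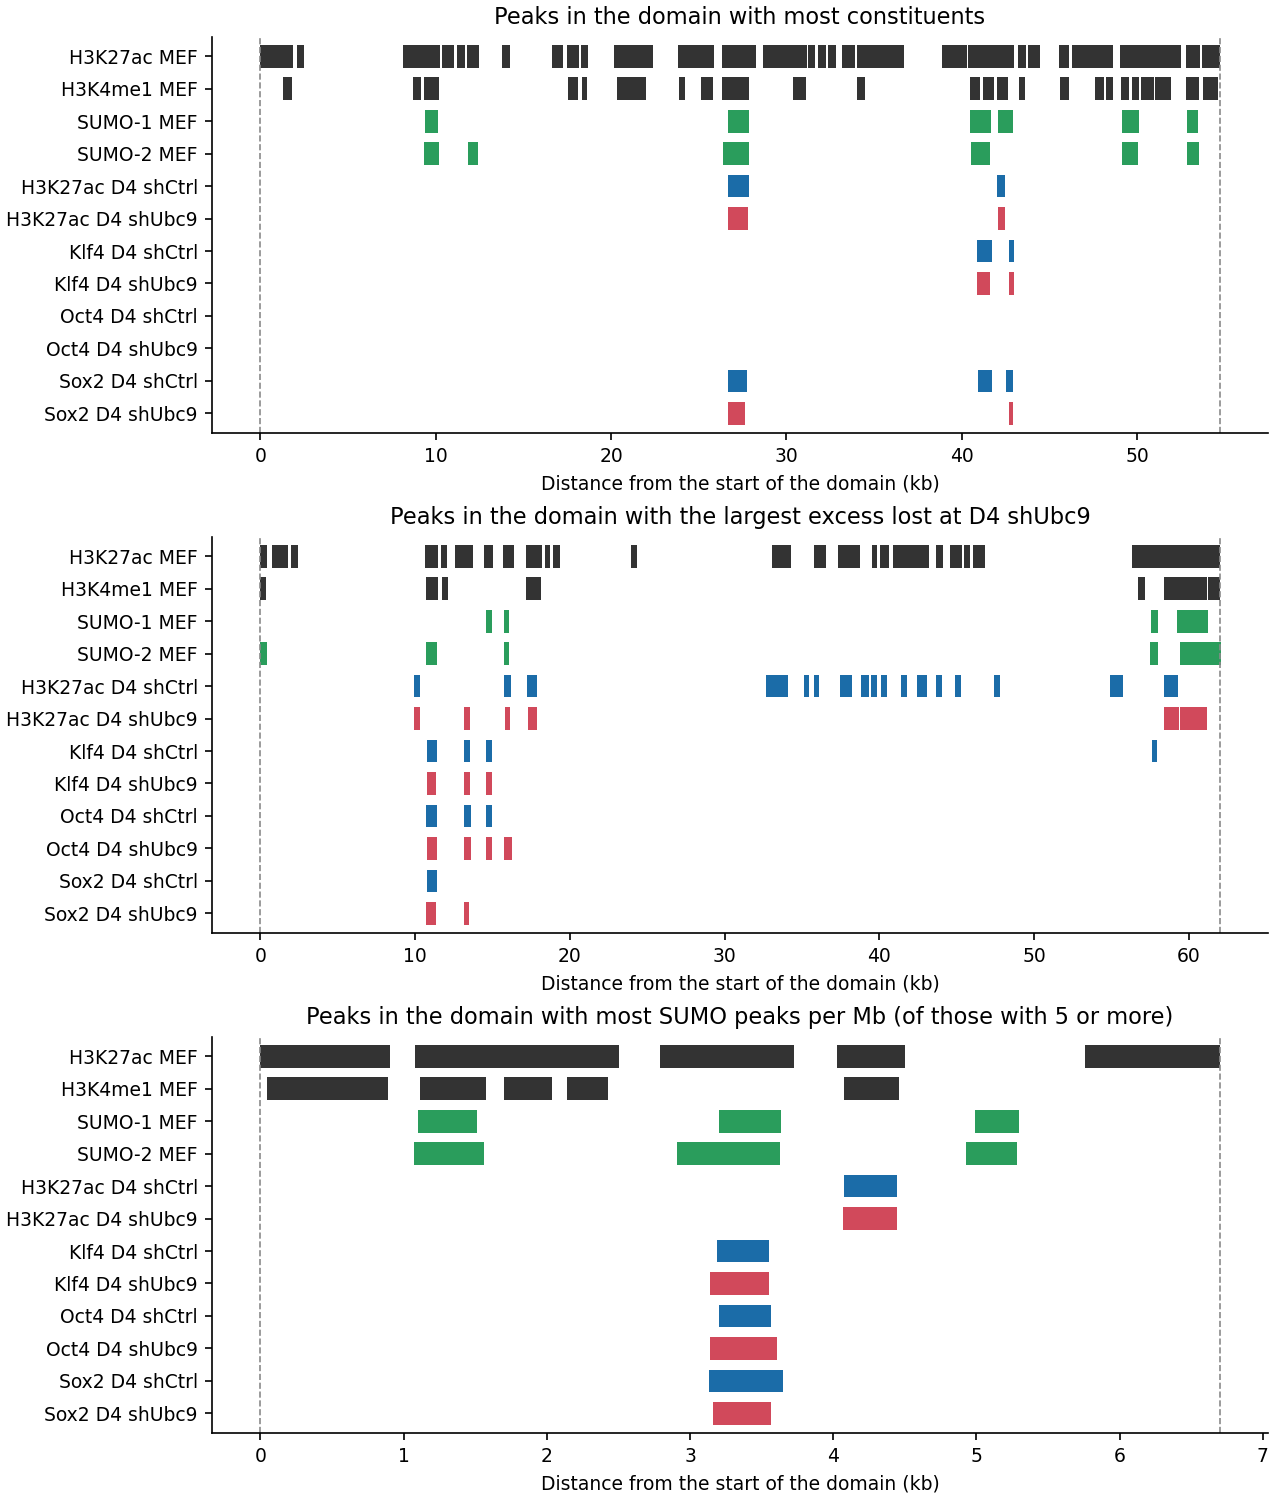
Peaks of 12 lists along 3 domains, by distance from the domain's start (kb), with dashed lines at the domain ends. The H3K27ac MEF row also draws peaks with H3K4me3, which are no constituents. The domain with 28 constituents (top) keeps 2 H3K27ac peaks in either D4 condition. In the domain with the largest excess lost at shUbc9 (middle), 8 constituents from 33.0 to 45.4 kb have a peak at D4 shCtrl and none at D4 shUbc9. The domain with most SUMO peaks per Mb among those with 5 or more (bottom) has 3 SUMO-1 and 3 SUMO-2 peaks in 6698 bp.

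Constituents with SUMO kept H3K27ac more often, before their score was taken into account. Of the 1776 constituents with SUMO-1 or SUMO-2, 59.9% were lost at shCtrl and 64.3% at shUbc9. Of the 4158 with neither, 69.6% and 74.7% were lost. Within score bins 1 to 3 the order at shCtrl was the other way. In bin 1, 86.9% of constituents with SUMO and 83.1% of those without were lost at shCtrl, and in bin 2, 83.5% and 77.7%. In bin 4 the shares were 49.0% and 49.5%. Within 4 bins of peak width the first order remained in 3, as in the narrowest with 79.9% and 82.6% lost and the widest with 47.6% and 50.1%, while width bin 2 had 74.7% and 74.0%. The step from shCtrl to shUbc9 was 4.39 percentage points in constituents with SUMO and 5.03 in those without. That difference between them was not tested.

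Of the 2441 D4 shCtrl peaks in domains, 135 lay off every MEF H3K27ac peak, and at shUbc9 132 of 2170 did. The domains were chosen for dense MEF peaks, so a low number is set by the choice. Domains were also built from the D4 lists by the same rule. They numbered 313 at shCtrl and 283 at shUbc9, and overlapped 164 (20.0%) and 127 (15.5%) of the MEF domains. ES cells had 176 domains built in this way, and they overlapped 11 MEF domains.

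Klf4, a zinc finger factor, was the reprogramming factor found most often in the domains, and it also had the longest list. At D4 shCtrl the lists held 34163 Klf4, 20197 Sox2 and 16740 Oct4 peaks. Of these, 5.18%, 5.03% and 5.41% lay in domains, so the order of the factors also depends on list length. At D4 shCtrl Klf4 lay on 1652 constituents (27.8%), Sox2 on 1033 (17.4%) and Oct4 on 927 (15.6%). Over all enhancer peaks the shares were 28.9%, 17.9% and 16.5%. Unclustered enhancers had 29.3%, 18.1% and 16.9%, slightly more than the constituents for each factor. At D4 shUbc9 the shares in constituents were 25.4% for Klf4, 19.6% for Sox2 and 17.1% for Oct4, against 26.6%, 20.8% and 18.2% over all enhancer peaks. A Klf4 peak lay in 616 domains (75.2%) at shCtrl and 599 (73.1%) at shUbc9. Peaks of all 3 factors lay in 412 and 436 domains, and no factor peak in 168 and 163.

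The changes between D4 conditions depended on the length of the lists. The Klf4 share in constituents differed by -2.44 percentage points at shUbc9, and in unclustered enhancers by -2.26, although its list was longer, with 37505 against 34163 peaks. Oct4 and Sox2 were on more constituents and more unclustered enhancers at shUbc9, while their lists grew from 16740 to 23477 and from 20197 to 27514 peaks. With each pair of lists cut to equal length, all 3 factors were on fewer constituents at shUbc9, by -2.29 points for Oct4, -4.18 for Klf4 and -2.34 for Sox2. The share of each list that lay in domains was also lower, at 4.42% against 5.41% for Oct4, 4.29% against 5.18% for Klf4 and 4.31% against 5.03% for Sox2.

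Constituents with a factor peak had an H3K27ac peak at D4 far more often. At shCtrl, 17.1% (15.98 to 18.3) of the 4135 constituents without a factor peak were kept. With 1 factor 56.5% (52.7 to 60.1) were kept, with 2 factors 73.7% (69.3 to 77.7), and with all 3 82.3% (79.3 to 85.0). At shUbc9 the shares were 13.6%, 44.3%, 60.9% and 80.5%. The intervals of neighbouring steps do not overlap in either condition. The intervals do not compare the 2 conditions, which have 1 list each, so the differences between conditions were not tested. The constituents behind each share also differ between conditions, since factors were counted in each condition separately. Unclustered enhancers followed the same order at lower levels, from 12.3% with none to 78.0% with all 3 at shCtrl. Factor chromatin was digested with micrococcal nuclease and histone chromatin was sonicated, so the lists differ in preparation as well as in antibody.

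**Figure D5:**
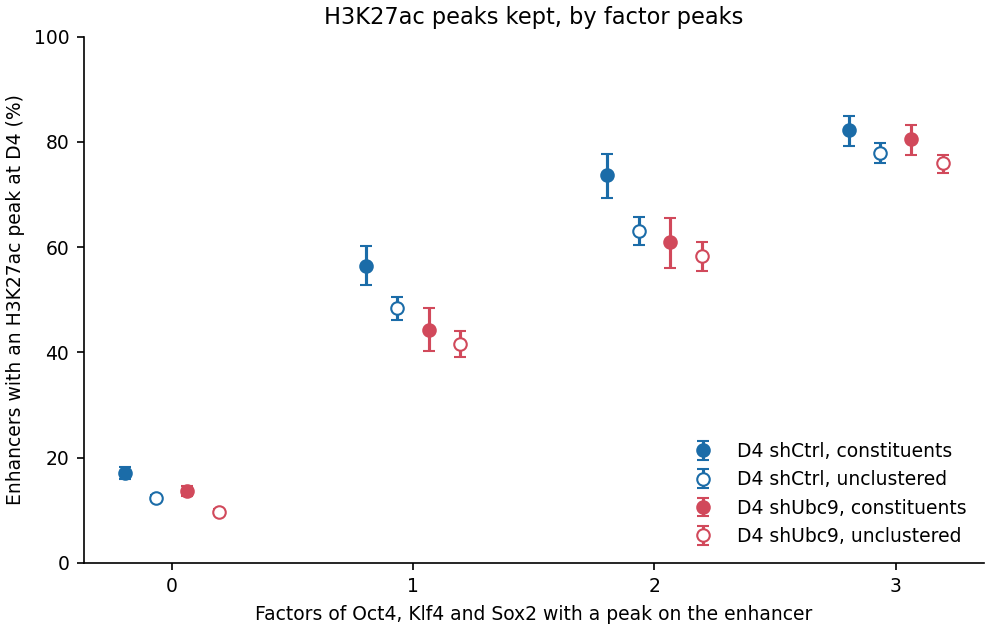
Share of enhancers (%) with an H3K27ac peak at D4, by the number of factors among Oct4, Klf4 and Sox2 with a peak on the enhancer in the same condition. Filled circles are constituents, open circles unclustered enhancers, bars 95% Wilson intervals. The share in constituents at D4 shCtrl goes from 17.1% with none to 82.3% with all 3.

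Constituents with 1 or more factor peaks were also compared with those without within score bins. At shCtrl, constituents of bin 1 were kept in 7.92% without and 54.0% with a factor peak. In bin 4 they were kept in 28.6% and 78.7%. Klf4 alone lay on 556 constituents, of which 59.7% were kept, and Oct4 alone on 52, of which 38.5% were kept. Most constituents with Oct4 had the other two as well, since 701 (11.8%) carried all 3 at shCtrl and 776 (13.1%) at shUbc9. The constituents lost only at shUbc9 carried Klf4 in 37.2% at shCtrl, close to the 37.1% of those lost only at shCtrl. Among those kept in both it was 70.1%, and among those lost in both 9.49%. Oct4 at shCtrl lay on 15.8% of those lost only at shUbc9 and 19.3% of those lost only at shCtrl, and Sox2 on 19.2% and 21.2%. With the factor lists of D4 shUbc9, the shares were 30.2% against 37.5% for Klf4, 14.7% against 28.2% for Oct4 and 20.7% against 29.0% for Sox2. Constituents lost only at shCtrl have H3K27ac at shUbc9 by definition, and those lost only at shUbc9 have none. Factor peaks went with H3K27ac in each condition, so the choice of classes favours this order at shUbc9.

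SUMO and the factors tended to lie on the same constituents, strong and weak. Klf4 at shCtrl lay on 42.7% of constituents with both SUMO proteins and on 23.3% of those with neither. With SUMO-1 or SUMO-2 against neither, the sign was the same within each score bin, with 24.6% against 15.7% in bin 1 and 44.7% against 37.7% in bin 4. Sox2 and Oct4 had the same sign in all 4 bins. Among constituents of bin 4 that carried a factor peak at shCtrl, 73.7% of those with SUMO and 85.4% of those without kept H3K27ac. In bin 1 these shares were 31.6% of 38 and 59.1% of the rest. Peak width moved with SUMO, at a median of 2021.5 bp with both SUMO proteins and 1113.5 bp with neither, and its part in these shares was not tested.

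Of the other marks, H3K4me1 at D4 differed most between the fates of constituents. H3K4me1 in MEF was on 59.1% of constituents and 56.2% of unclustered enhancers, on 57.4% of constituents kept in both conditions and on 59.5% of those lost in both. At D4 shCtrl, H3K4me1 lay on 75.3% of the constituents kept in both conditions and on 8.08% of those lost in both. Most constituents lost in both thus had no listed peak of either mark at D4 shCtrl. That H3K4me1 list was shorter than the MEF list, with 13633 against 25401 peaks and a lowest score of 350 against 160. The step from 59.5% to 8.08% therefore also depends on the lists. Of those lost only at shUbc9, 56.0% had H3K4me1 at shCtrl and 24.0% at shUbc9. H3K27me3, the Polycomb mark, lay on at most 0.24% of the constituents lost in both. H3K9me3 in MEF lay on 178 constituents (3.0%, against 2.34% over all enhancer peaks) and in 244 domains (29.8%). At D4 it lay on 7 constituents at shCtrl and 6 at shUbc9, or 0.12% and 0.10%, against 0.16% and 0.17% over all enhancer peaks. The D4 H3K9me3 lists were shorter, with 4468 and 5436 peaks against 12020 in MEF. The lower shares at D4 therefore also depend on the lists. Their lowest scores were 193 and 225 against 80, on scales that may differ. H3K4me3 was absent in MEF by the rule. It lay on 1.77% of constituents at D4 shCtrl and 3.07% at D4 shUbc9, below the 3.55% and 5.21% over all enhancer peaks. At shUbc9 its list was longer, with 18698 against 16322 peaks and a lowest score of 340 against 640.

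Few constituents were active in ES cells. An ES H3K27ac peak lay on 344 (5.80%, 5.23 to 6.42), against 8.37% (7.95 to 8.80) of unclustered enhancers. These 344 were kept more often than the rest, with losses of 34.6% (29.8 to 39.8) at shCtrl and 37.2% (32.3 to 42.4) at shUbc9. Unclustered enhancers with an ES peak were also lost less often than unclustered enhancers as a whole, at 45.2% and 42.9%.

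RNA was measured in D4 and MEF cells with either hairpin. The total gene counts ran from 25125336 to 56590370 in the 11 libraries used.

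The fibroblast label was checked with marker genes. All 10 fibroblast markers, such as the collagen gene Col1a1, had at least 1 CPM in every library, with sums of 24040 to 27950 CPM (a count scaled to a common library total) in MEF shCtrl. At D4 the sums were 31210 to 40190 with shCtrl and 22160 to 24310 with shUbc9. The 6 pluripotency markers summed to 0.84 to 1.37 and 1.82 to 7.04 CPM, and none had 1 CPM or more in every library. Sums of the macrophage list were 40.0 to 44.4 and 73.3 to 78.1 CPM, of the epithelial list 138 to 149 and 255 to 260, and of the endothelial list 160 to 180 and 201 to 212. In 2 of these lists 1 gene carried most of the difference (genes singled out after their values were seen). Dsp went from 36.3 to 138 CPM in the epithelial list, in which Krt18 fell from 2.56 to 1.70 CPM, and Tek from 167 to 205 CPM in the endothelial list, in which Kdr fell from 3.16 to 2.28 CPM. No member of these lists was at 0 in every D4 library. The sums of none of the 5 lists overlapped between the D4 conditions, and their part in the peak and RNA differences was not tested.

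Coactivators and corepressors of enhancers were measured with 19 genes. Comparing D4 shUbc9 with D4 shCtrl, 6 fell and 1 rose in edgeR's quasi-likelihood test with Benjamini-Hochberg adjustment, and 12 did not pass an adjusted p of 0.05. Over all 17001 genes tested, 26.1% fell and 27.2% rose. The list's median log2 fold change was -0.28, against -0.01 over all genes. Arid1b, a subunit of the BAF remodelling complex, fell from 99.3 ± 6.6 to 69.0 ± 6.5 CPM (SD, n = 3 libraries each), an adjusted p of 0.000417 in edgeR. Ep300 fell from 74.8 ± 17.7 to 50.4 ± 14.4 CPM with an adjusted p of 0.0336 and Crebbp from 147 ± 35.1 to 103 ± 25.7 CPM with 0.0356 in edgeR. Both acetyltransferase calls were lost in the same 4 of 6 fits without 1 library, at adjusted p of 0.0634 to 0.118 for Ep300 and 0.0721 to 0.133 for Crebbp in edgeR. They were also lost in DESeq2, at 0.0666 and 0.0734. Hdac2, a histone deacetylase, rose from 112 to 162 CPM with an adjusted p of 0.00213 in edgeR. The number that fell was 2 without D4 shUbc9 replicate 1, D4 shCtrl replicate 1 or D4 shCtrl replicate 3, 3 without D4 shUbc9 replicate 3, and 11 without replicate 2 of D4 shUbc9 or D4 shCtrl. The Ep300 and Crebbp calls held in the last 2 of these fits only.

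Of 37 transcription factors known from fibroblast enhancers, 19 fell, 8 rose and 10 did not pass the test, with a median log2 fold change of -0.34. Over all genes tested, 26.1% fell and 27.2% rose, with a median of -0.01. The 3 largest falls were in Meox1, Nfia and Osr1. Meox1, a homeobox gene, fell from 3.78 to 1.10 CPM, a log2 fold change of -1.86 ± 0.13 (SE). Nfia, a nuclear factor I gene, fell by 1.10 on the log2 scale. Osr1, a mesenchymal zinc finger gene, fell by 1.09 on that scale. The 3 largest rises were in Fosl1, Maff and Tead4. Fosl1, an AP-1 subunit, rose from 1.28 to 3.33 CPM, a log2 fold change of 1.31 ± 0.14, the small Maf factor Maff by 1.15 and the TEAD family member Tead4 by 0.80 on the log2 scale. All 6 kept their call in every fit without 1 library.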

How the data were processed

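The members, gene lists and markers were chosen with earlier results of these data known. The authors deposited ChIP-seq peak lists on mm9, 1 per antibody and condition, made from both replicates. Bowtie for alignment and MACS2 for peaks appear in the submitters' processing notes, as does bedtools 2.19.1. Per the file headers and values, the deposited score is 10 times another column rounded down, used as a rank within a list. Lowest scores are given beside list lengths, but scores may not be comparable between lists. Another column the authors deposited gives the summit. Lines repeated in the H3K27me3 lists were counted once. Overlap meant 1 shared bp or more. Lost meant that no D4 H3K27ac peak overlapped a constituent. The 4 score bins hold equal numbers of all enhancer peaks, as near as ties allow. Inputs and ATAC samples, and a pair of H3K9me3 lists of siRNA-treated ES cells, were not analysed here.

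The authors deposited raw RNA counts per gene by Entrez identifier (notes: STAR 2.5.0a, featureCounts, DESeq2). Of 26301 genes, 24191 matched a symbol, and 799 rows of repeats were left out. CPM was computed from the raw counts. edgeR 4.0.16 (filterByExpr, TMM, quasi-likelihood, two-sided) tested each pair of groups, with DESeq2 1.42.0 as an alternative. SE is the log2 fold change divided by the root of the F statistic. The joining, overlap and count tests were tested on simulated data. No mm9 gene annotation or sequence was used here, so domains carry no gene names or sequences, and the planned counts of genes near domains were not made.

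Domains were named by rule: the 8 with most constituents, the 5 with most SUMO peaks per Mb among those with 5 or more, the 5 with the largest excess lost in either D4 condition, and the 3 longest without SUMO. Of each gene list the 3 called genes with the largest change in each direction were named. Some results on single genes and their list are not reported here.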

Additional observations from a re-analysis of the deposited data

How the results depend on the processing

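Differences are in percentage points, constituents minus unclustered enhancers unless said otherwise, and the cause of a move was not tested. With gaps up to 5000 bp there were 447 domains, with 92.0 SUMO-1 and 102.8 SUMO-2 peaks per Mb and SUMO differences of 0.57 and 0.056. With gaps up to 25000 bp the densities were 42.5 and 47.5 and the loss difference at shUbc9 -4.28. With 10 or more peaks there were 132 domains, 76.3 SUMO-2 peaks per Mb and loss differences of -0.32 at shCtrl and 1.89 at shUbc9. With 50% of the peak covered, the SUMO differences were -1.57 and -2.06, those of loss -0.46 and 0.39, and Klf4 at shUbc9 minus shCtrl -0.69. With the upper 50% of the lists there were 200 domains, densities of 43.5 and 58.2, a SUMO-2 difference of 4.62, loss differences of 5.52 and 8.33, and Oct4 at shUbc9 minus shCtrl of -0.55. With D4 lists of equal length, Oct4, Klf4 and Sox2 at shUbc9 minus shCtrl were -2.29, -4.18 and -2.34. Weighted by score, the SUMO differences were -2.29 and -3.02 and those of loss -0.068 and 1.54. Weighted by width, they were 0.15 and -0.45, and -2.86 and -0.89. With the shorter MEF list, chosen after seeing the data, there were 342 domains, densities of 79.6 and 89.2, loss differences of -1.64 and 0.063, and Klf4 at -4.07. Leaving out peaks within 1000 bp of H3K4me3 gave 775 domains and moved no value beyond its interval. Loss at shUbc9 minus shCtrl kept its direction in all 8 alternatives.

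Over all genes, the calls at D4 stayed within 1.5 times the reported 4622 higher and 4429 lower under each alternative, with 3655 to 4487 and 3569 to 4450 without 1 library. The replicate block gave 3844 higher and 3653 lower. Same-numbered D4 libraries did not deviate together (correlations of -0.00291, -0.369 and -0.221). So few libraries cannot settle whether the numbers pair them. Enhancer machinery genes that fell numbered 11 without a count filter and 2 with the block, against 6. DESeq2 and the alternatives for gene lists were added after seeing the data. With the block Ep300 and Crebbp had adjusted p of 0.0655 and 0.0778 in edgeR, and no other named gene changed its call. Genes of domains and their alternatives were not run.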
